A study of Mus musculus with 17 samples.

Results

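The 6 genes described here are Trp53, which encodes the transcription factor p53, and Mdm2, Mdm4, Ppm1d, Ccng1 and Trp53inp1, which encode proteins that p53 is known to be regulated by. They were taken by symbol from 2 tables of FPKM (fragment counts scaled to transcript length and library size), and all 6 were found among the 23361 genes of each table. The study sequenced RNA from mouse primordial germ cells, which give rise to the gametes, with and without exposure to ionizing radiation (IR), in 17 libraries. At E11.5 (embryonic day), for which the labels give no sex, there were 2 irradiated and 3 non-irradiated libraries. At E13.5 there were 3 irradiated and 3 non-irradiated female libraries, and 3 male libraries coded MIR and 3 coded MC. The labels of the 6 male libraries disagree: by title and condition entry MIR is non-irradiated and MC irradiated, but the parallel female codes, FIR and FC, mark irradiated and non-irradiated cells. The male groups are therefore named by their codes, and no direction of irradiation is drawn from them. For irradiated female replicate 1 the cell type entry is E11.5 and the title E13.5, and it was used as E13.5. The labels give no strain, genotype, dose or time after irradiation. Whether replicates are separate embryos is not stated, and p-values reflect the spread among these libraries alone, which may be technical.

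The tumour suppressor p53 is kept low in undamaged cells by Mdm2, a ubiquitin ligase that marks it for degradation, and by Mdm4, a relative of Mdm2 that binds and masks its activation domain. DNA damage frees p53 from both, mainly through changes to the proteins, and p53 then switches on Mdm2, Ppm1d (the phosphatase Wip1, which removes damage-induced phosphates from p53 and its kinases) and Ccng1 (cyclin G1, which recruits protein phosphatase 2A to Mdm2), each of which closes a negative loop. Trp53inp1, another p53 target, encodes a nuclear protein that promotes phosphorylation of p53 and so acts in the positive direction.

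Depth is not stated in the tables. A rough estimate from the smallest FPKM steps gave about 11000000 to 19300000 fragments per library at E11.5 and 13300000 to 26300000 at E13.5, at which the lowest of the 6 genes, Ppm1d, rested on about 499 to 2310 fragments per library. All 15 germ cell markers had at least 1 FPKM in every library. Their summed level was 1913 to 2874 FPKM in irradiated females, against 3816 to 3953 in non-irradiated females, and 1510 to 2858 in MIR, against 4346 to 4714 in MC. Markers of the gonad's supporting cells, macrophages and mesenchyme moved the other way, but endothelial and erythroid sums did not. The 8 endothelial markers summed to 60.2 to 77.3 FPKM in irradiated and 109 to 118 in non-irradiated females. In MIR they summed to 35.2 to 73.0 FPKM, against 81.7 to 88.2 in MC. The 8 erythroid markers found summed to 1.83 to 10.3 FPKM in irradiated and 29.2 to 44.9 in non-irradiated females. In males they overlapped, at 26.6 to 41.7 FPKM in MIR and 6.52 to 103 in MC. The 13 pregranulosa markers summed to 201 to 492 FPKM in irradiated females and 10.9 to 11.9 in non-irradiated females, and none was at 0 in either group. The 12 Sertoli cell markers summed to 1284 to 4367 FPKM in MIR and 78.0 to 131 in MC, again with none at 0. The pregranulosa markers also summed to 110 to 326 FPKM in MIR, against 9.48 to 14.9 in MC. Only 6 to 8 of the 13 had at least 1 FPKM in MIR libraries, and 5 to 6 in MC. The sum in MIR thus came from part of the list. The 9 macrophage markers found in the table summed to 50.1 to 80.5 FPKM in irradiated females, against 12.6 to 16.9 in non-irradiated females, and to 12.3 to 32.5 in MIR, against 4.85 to 6.83 in MC. The 12 mesenchyme markers summed to 26.9 to 54.5 FPKM in irradiated females, against 10.9 to 15.3 in non-irradiated females, and to 31.8 to 69.7 in MIR, against 5.09 to 12.9 in MC. At E11.5 the germ cell sums overlapped, at 3999 to 4286 FPKM in irradiated and 4101 to 4977 in non-irradiated libraries. Erythroid sums varied widely there, at 656 and 10.7 FPKM in irradiated and 304, 1.49 and 378 in non-irradiated libraries. The macrophage sum was 65.0 FPKM in non-irradiated E11.5 replicate 2, against 14.9 to 24.9 in the other E11.5 libraries. In bulk RNA, fewer cells of a type and less RNA per cell cannot be told apart, and the part of these other cells in the differences below was not tested.

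**Figure D1:**
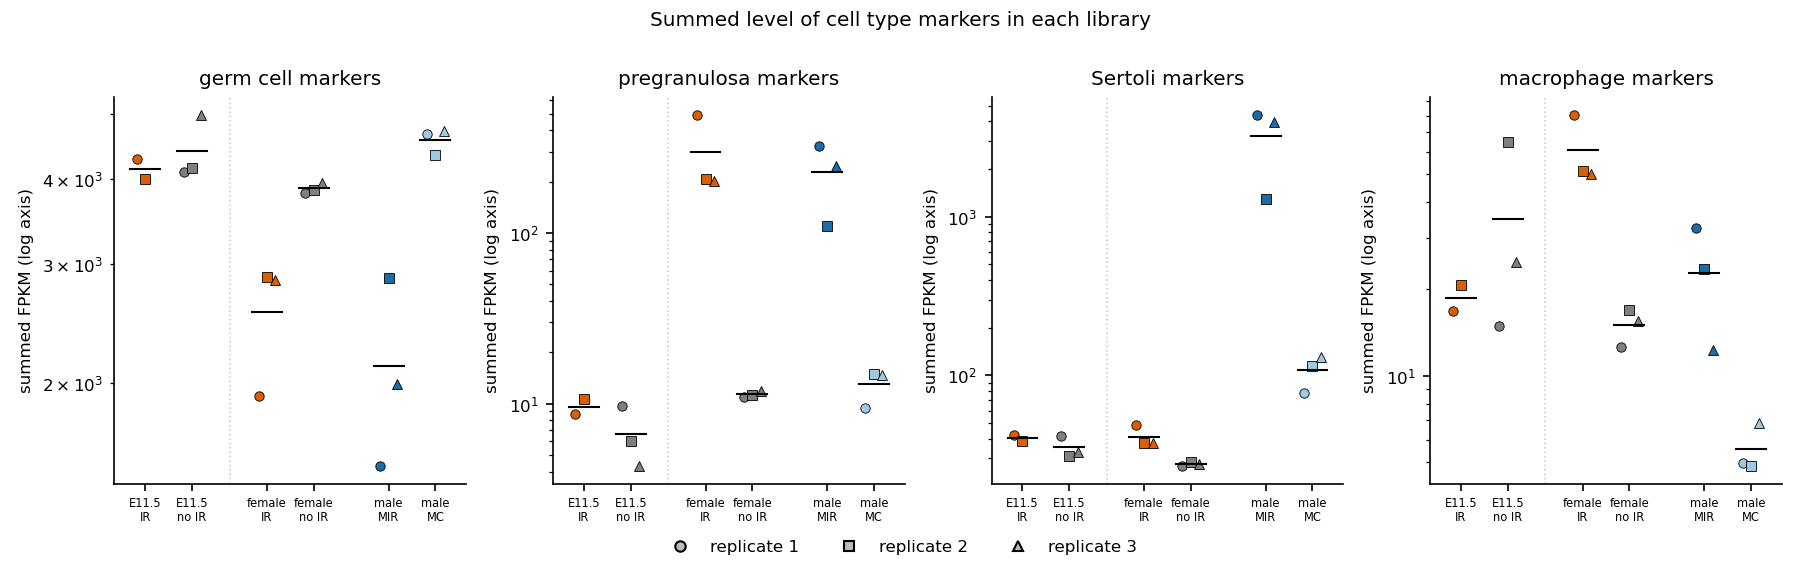
Summed FPKM (log axis) of the germ cell, pregranulosa, Sertoli and macrophage markers in each of the 17 libraries, with a bar at the group mean. Irradiated female replicate 1 and MIR replicate 1 have the lowest germ cell sums of the E13.5 libraries, at 1913 and 1510 FPKM.

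The promoters of the 6 genes were read in RefSeq's GRCm38.p6 sequences, which held all but Trp53inp1, as the 250 bases before each start that RefSeq annotates (for Ccng1 this start lies slightly inside the GENCODE gene bounds given with its values). These windows were searched on both strands for the p53 consensus site, which is made of 2 decamers. The windows are shown for the gene with the largest change (Ccng1), for the main inhibitor of p53 (Mdm2) and for Trp53, with the match to the consensus in capitals.
Ccng1, chr11:40755287-40755536, minus strand: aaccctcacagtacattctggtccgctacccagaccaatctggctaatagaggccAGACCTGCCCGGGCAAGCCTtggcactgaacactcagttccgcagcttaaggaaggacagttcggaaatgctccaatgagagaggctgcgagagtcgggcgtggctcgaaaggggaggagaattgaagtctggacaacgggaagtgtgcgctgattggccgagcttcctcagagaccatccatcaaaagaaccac
Mdm2, chr10:117710759-117711008, minus strand: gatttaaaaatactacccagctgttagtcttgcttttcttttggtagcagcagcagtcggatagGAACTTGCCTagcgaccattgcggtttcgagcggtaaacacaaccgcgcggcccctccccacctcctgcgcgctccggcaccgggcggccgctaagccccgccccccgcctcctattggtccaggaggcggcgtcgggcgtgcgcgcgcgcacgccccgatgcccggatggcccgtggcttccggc
Trp53, chr11:69580109-69580358, plus strand: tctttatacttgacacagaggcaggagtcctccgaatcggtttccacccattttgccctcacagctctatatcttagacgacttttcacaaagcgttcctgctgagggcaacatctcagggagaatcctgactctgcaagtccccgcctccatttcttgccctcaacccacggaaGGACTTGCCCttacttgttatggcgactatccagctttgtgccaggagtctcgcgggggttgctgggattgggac
Ccng1 held a full 20-base site, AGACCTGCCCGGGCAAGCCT, with 1 mismatch, beginning 195 bases before the start. Of 32851 promoter windows of that length, 0.076% held a full site with at most 1 mismatch and no spacer. Mdm2 and Trp53 each held a single decamer without mismatch, 186 and 75 bases before the start. Ppm1d held 1 as well, 132 bases before its start, and a cAMP response element (TGACGTCA) 85 bases before it. A decamer without mismatch stood in 7.13% of all windows and TGACGTCA in 1.55%. Both annotated Mdm4 windows held neither. The CCAAT box, present in 33.8% of all windows, stood in the windows of Trp53, Mdm2, Ppm1d and Ccng1, and the E box CACGTG, present in 6.02%, in none of the 5 genes' windows. The promoter of Mdm2 that p53 is known to use lies in the first intron, outside this window. A match describes the letters and shows no binding.

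At E13.5, irradiated female cells had less Trp53 RNA and more Mdm2, Ppm1d, Ccng1 and Trp53inp1 RNA than non-irradiated cells. The MIR libraries had less Trp53 and more Mdm2, Mdm4, Ccng1 and Trp53inp1 than the MC libraries. Ccng1 stood out in size, at 4.45-fold in females and 6.49-fold in males. At E11.5 none of the 6 passed the test. Differences were tested with limma on log2(FPKM + 1), and a gene was called at a Benjamini-Hochberg adjusted p below 0.05 over all genes of its comparison. In females 5 of 6 were called, 4 higher and 1 lower, where 44.8% of all 12852 genes were called, 21.8% higher and 22.9% lower. Ppm1d and Mdm4 had like log2 differences there, 0.44 and 0.43, on either side of the threshold (limma adjusted p = 0.0435 and 0.0551). The Ppm1d groups overlapped and the Mdm4 groups did not. In males 5 of 6 were called, also 4 higher and 1 lower, where 59.7% of all genes were called, 28.7% higher and 31% lower. At E11.5, 0 of 6 and 2 of 11315 genes (0.0177%) were called by limma, while 358 genes had an unadjusted p below 0.05, none of the 6 among them. With the male groups set by their codes, as MIR minus MC, the difference between the female and the male differences was called by limma for 0 of the 6, with 1 (Ccng1) at an unadjusted p below 0.05, and for 7.77% of all genes. With the male groups turned as their titles name them, a setting chosen after seeing the data, it was called for all 6 and for 67.7% of all genes, so that count holds only under the codes.

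**Figure D2:**
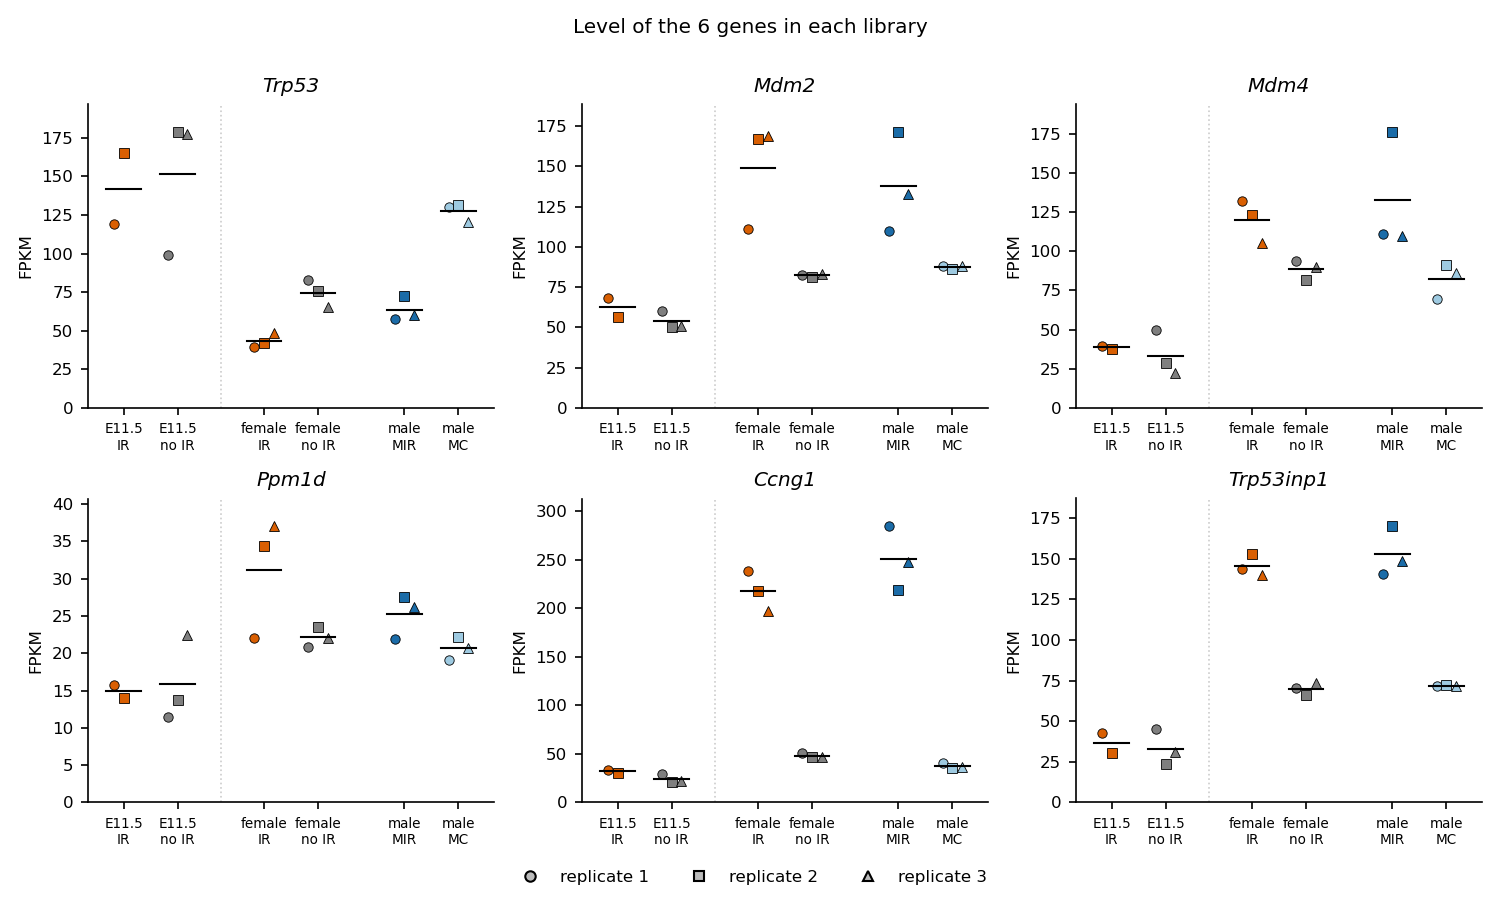
FPKM of each gene in every library, with a bar at the group mean. Within each sex at E13.5 the 2 groups separate for Trp53, Mdm2, Mdm4, Ccng1 and Trp53inp1, whereas for Ppm1d the ranges overlap. The share of all genes whose groups separate was not computed.

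Trp53 (chr11:69580359-69591873, plus strand, GRCm38) was measured at 39.2, 42.0 and 48.6 FPKM in irradiated females, against 82.6, 75.7 and 65.5 in non-irradiated females. In males it was measured at 57.5, 72.8 and 60.3 FPKM in MIR, against 130, 131 and 120 in MC. The groups did not overlap in either sex. The share of all genes without such overlap was not computed, so separation is not read as particular to any gene described here. Trp53 fell by 0.77 on the log2 scale in females (SE 0.117, adjusted p = 0.0003995) and by 1.0 in MIR relative to MC (SE 0.117, adjusted p = 3.697e-05). On the scale of FPKM + 1, these differences correspond to 0.586-fold in females and 0.501-fold in males. Only 3.2% of genes in females and 3.3% in males had a smaller (more negative) difference. At E11.5 it had 119 and 165 FPKM in irradiated libraries and 98.9, 179 and 177 in non-irradiated libraries, which overlap (log2 difference -0.06, 95% interval -0.71 to 0.58). A processed pseudogene, Trp53-ps on chromosome 17, could share reads with it.

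Mdm2 (chr10:117688875-117710758, minus strand) was nearly constant among non-irradiated females and among MC libraries, and spread more widely among irradiated females and MIR. It had 111, 167 and 169 FPKM in irradiated females, against 82.7, 81.3 and 83.3 in non-irradiated females, and 110, 171 and 133 FPKM in MIR, against 88.3, 86.1 and 88.0 in MC. Every irradiated female library lay above every non-irradiated one, as did MIR above MC. The coefficient of variation was 22.1% in irradiated and 1.26% in non-irradiated females, and 22.6% in MIR and 1.37% in MC. Mdm2 rose by 0.82 on the log2 scale in females (SE 0.167, adjusted p = 0.002288) and by 0.63 in MIR (SE 0.167, adjusted p = 0.006489). The male call was lost when libraries were scaled to the same median (adjusted p = 0.0685, over a range of 5.64e-05 to 0.0685 among 16 alternatives). At E11.5 it had 68.3 and 56.5 FPKM in irradiated and 60.4, 50.1 and 50.8 in non-irradiated libraries, with a log2 difference of 0.21 (95% interval -0.17 to 0.59).

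Mdm4 (chr1:132959484-133030561, minus strand) had 132, 123 and 105 FPKM in irradiated females, against 93.8, 81.9 and 90.3 in non-irradiated females. In males it had 111, 177 and 110 FPKM in MIR, against 69.5, 91.0 and 85.9 in MC. MIR replicate 2 stood well above its group, and neither pair of groups overlapped. The log2 difference was 0.66 in males (SE 0.170, adjusted p = 0.005418), and 0.43 without MIR replicate 2 (adjusted p = 0.00942). In females it was 0.43 (SE 0.170), with an adjusted p of 0.0551 that missed the threshold, and 4 of 16 alternatives called it (adjusted p from 0.000145 to 0.158). At E11.5 the irradiated libraries had 39.5 and 37.7 FPKM, inside the span of 49.6, 28.4 and 22.1 FPKM in non-irradiated libraries. Reads of Mdm4 could be shared with the pseudogene Mdm4-ps on chromosome X, and Gm29257, a pseudogene on the other strand, overlaps it.

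Ppm1d (chr11:85311244-85347066, plus strand) had the lowest mean FPKM of the 6 genes in every group. It had 22.0, 34.4 and 37.1 FPKM in irradiated females, against 20.8, 23.6 and 22.0 in non-irradiated females, and 21.9, 27.6 and 26.2 FPKM in MIR, against 19.1, 22.2 and 20.7 in MC. Replicate 1 of both irradiated females and MIR lay within the range of the groups they are set against. The log2 difference in females was 0.44 (SE 0.164, adjusted p = 0.0435), and the call was lost in 8 of 16 alternatives, among them leaving out irradiated female replicate 2 (adjusted p = 0.141) or 3 (0.163) or any non-irradiated female library (0.0687 to 0.124), over a range of 9.99e-06 to 0.163. In males it was 0.27 (SE 0.164, 95% interval -0.08 to 0.63, adjusted p = 0.17). At E11.5 it had 15.8 and 14.0 FPKM in irradiated and 11.4, 13.7 and 22.4 in non-irradiated libraries.

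Ccng1 (chr11:40748552-40755311, minus strand) had the largest difference of the 6 at both ages. It had 239, 218 and 197 FPKM in irradiated females, against 50.9, 47.0 and 46.2 in non-irradiated females. In males it had 284, 218 and 248 FPKM in MIR, against 40.8, 35.3 and 36.5 in MC. The lowest irradiated female library was more than 3 times the highest non-irradiated one, and the gap was wider in males. On the log2 scale Ccng1 rose by 2.15 in females (SE 0.109, adjusted p = 3.403e-07) and by 2.70 in MIR (SE 0.109, adjusted p = 3.257e-08). Of the 12852 genes tested, 278 rose more in females and 303 in males. The difference of irradiated minus non-irradiated females was smaller than that of MIR minus MC by 0.54 (SE 0.154), with an adjusted p of 0.0507 that missed the threshold, and 4 of 21 alternatives that kept the codes called it (0.00236 to 0.128). Set against MC minus MIR, as the titles have it, it was larger by 4.85 (SE 0.154, adjusted p = 1.22e-09). At E11.5 the 33.3 and 30.3 FPKM of irradiated libraries lay just above the 29.6, 20.8 and 21.6 FPKM of non-irradiated libraries, with a log2 difference of 0.41 (95% interval -0.04 to 0.86, adjusted p = 0.974).

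Trp53inp1 (chr4:11156431-11174379, plus strand) had 144, 153 and 140 FPKM in irradiated females, against 70.6, 65.8 and 73.6 in non-irradiated females. In males it had 141, 170 and 149 FPKM in MIR, against 71.9, 72.0 and 71.9 in MC. Irradiated females and MIR overlapped, as did non-irradiated females and MC, and no groups overlapped within a sex. Trp53inp1 rose by 1.05 on the log2 scale in females (SE 0.086, adjusted p = 8.148e-06) and by 1.08 in MIR (SE 0.086, adjusted p = 3.937e-06). At E11.5 the irradiated libraries had 42.4 and 30.6 FPKM and the non-irradiated libraries 45.0, 23.4 and 31.0, which overlap.

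**Figure D3:**
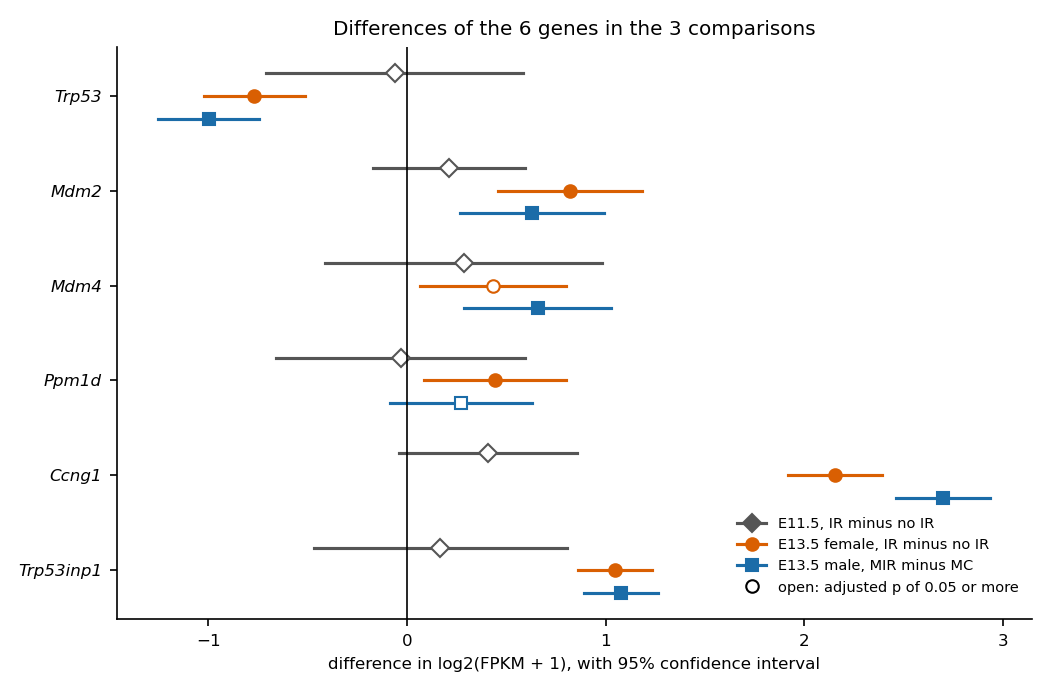
Difference in log2(FPKM + 1) of each gene at E11.5 (irradiated minus non-irradiated), in E13.5 females (irradiated minus non-irradiated) and in E13.5 males (MIR minus MC), with 95% confidence intervals; filled symbols were called. All 6 E11.5 intervals include 0, and Ccng1 lies farthest from 0 at E13.5, at 2.15 and 2.70.

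Comparing females with males at E13.5 depends on which male group is set beside which female group. By the codes, Trp53 was lower in both female groups. Non-irradiated females had 74.6 ± 8.59 FPKM and MC males 127 ± 6.03 (SD, n = 3 each), a log2 difference of -0.77 (SE 0.117, limma adjusted p = 0.0003684). Irradiated females had 43.3 ± 4.81 FPKM and MIR males 63.5 ± 8.17 (SD, n = 3 each), a log2 difference of -0.54 (SE 0.117, limma adjusted p = 0.003741). Ccng1 was also called between non-irradiated females and MC, at 48.0 ± 2.50 and 37.5 ± 2.88 FPKM (SD, n = 3 each), with a log2 difference of 0.35 (limma adjusted p = 0.0258). That call was lost without any 1 of the 3 female libraries or MC replicates 2 or 3 (adjusted p from 0.0525 to 0.0934). So 2 of 6 were called between non-irradiated females and MC, where 34.9% of all genes were, and 1 of 6 between irradiated females and MIR, where 36.3% were. By the titles the pairs are non-irradiated females with MIR, where the Trp53 ranges overlapped (log2 difference 0.23, SE 0.117, adjusted p = 0.1075) and 4 of 6 were called against 60.9% of all genes, and irradiated females with MC, where Trp53 differed by -1.54 (SE 0.117, adjusted p = 1.248e-06) and all 6 were called against 60.2% of all genes. These comparisons use the same libraries as the ones above. In order of mean level, Trp53 ran from MC to non-irradiated females, MIR and irradiated females, and only the middle pair overlapped. For Mdm2, Mdm4, Ccng1 and Trp53inp1, irradiated females and MIR overlapped each other and lay above both other groups.

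Ratios of genes within a library do not depend on how libraries are scaled. There were 3.42 ± 0.572 Mdm2 per Trp53, in FPKM, in irradiated females and 1.12 ± 0.140 in non-irradiated females (SD, n = 3 each, exact permutation p = 0.1, two-sided). The same ratio was 2.16 ± 0.226 in MIR and 0.688 ± 0.0386 in MC (SD, n = 3 each, exact permutation p = 0.1). The groups separated fully in both sexes, and 0.1 is the smallest p that 3 against 3 allows. How often ratios of other genes separate was not computed. The ratio of geometric means was 3.05 in females and 3.12 in males. Ccng1 per Trp53 was 7.79 times as high in irradiated as in non-irradiated females and 13.4 times as high in MIR as in MC. Mdm2 per Mdm4, the 2 inhibitors against each other, was 1.26 ± 0.388 in irradiated and 0.932 ± 0.0564 in non-irradiated females (SD, n = 3 each, exact permutation p = 0.4), and 1.06 ± 0.131 in MIR and 1.08 ± 0.170 in MC (SD, n = 3 each, exact permutation p = 0.7). Both pairs of groups overlapped for this ratio. At E11.5, Mdm2 per Trp53 was 0.574 and 0.342 in irradiated and 0.610, 0.280 and 0.286 in non-irradiated libraries. Replicate 1 of either E11.5 group thus held the higher ratio, with less Trp53 and more Mdm2, Mdm4, Ccng1 and Trp53inp1 than the other libraries of its group. Irradiated E11.5 replicate 1 also had 6 Sertoli markers at 1 FPKM or more, against 1 in each other E11.5 library.

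**Figure D4:**
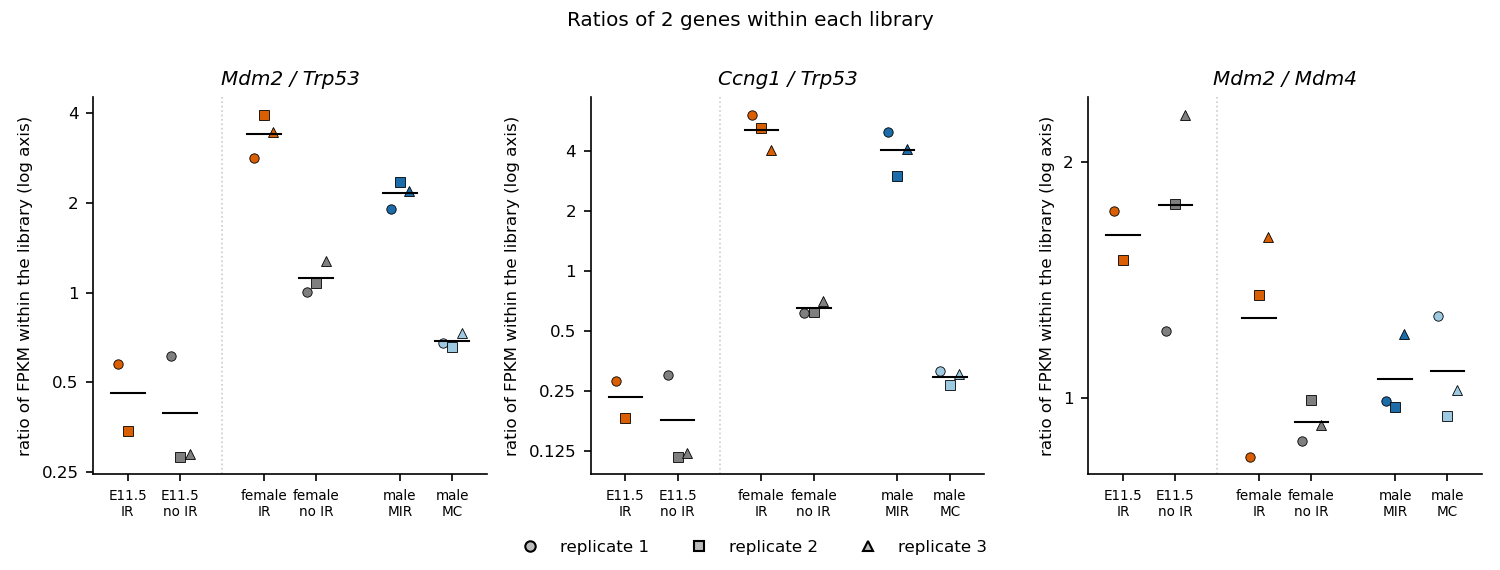
Ratio of FPKM within each library (log axis) for Mdm2 to Trp53, Ccng1 to Trp53 and Mdm2 to Mdm4, with a bar at the group mean. The first pair of ratios separates the E13.5 groups in both sexes, and Mdm2 to Mdm4 does not.

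The germ cell marker sum also varied within groups. Irradiated female replicate 1, with the lowest germ cell sum (1913 FPKM), had the lowest Mdm2, Ppm1d and Trp53 and the highest Ccng1 and Mdm4 of its group. MIR replicate 2, with the highest germ cell sum of its group (2858 FPKM) and the lowest Sertoli sum (1284 FPKM), had the highest Mdm2, Mdm4, Ppm1d, Trp53inp1 and Trp53 and the lowest Ccng1. With the mean germ cell marker level as a covariate, the log2 difference of Mdm2 was 1.40 in females and 1.57 in males, and that of Ppm1d 0.86 in females (adjusted p = 0.00547) and 0.96 in males (adjusted p = 0.0354, over a range of 0.0354 to 0.657). That of Ccng1 was 1.89 in females and 2.26 in males, both still called. Trp53 was -0.50 in females (adjusted p = 0.0191) and -0.55 in males, where the call was lost (adjusted p = 0.087, over a range of 6.66e-06 to 0.087). The male call of Mdm4 was lost too (log2 difference 1.02, adjusted p = 0.0828, over a range of 0.00156 to 0.0828). Covariate and group largely coincide, since every irradiated female library had a lower germ cell sum than every non-irradiated one, and every MIR library than every MC library.

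Among themselves, Mdm2, Mdm4, Ppm1d and Trp53inp1 had like profiles over the 12 E13.5 libraries, with a root mean square difference of 0.23 to 0.42 in log2 units after centring each gene. Mdm2 and Ppm1d were closest, at 0.23, and Trp53 and Ccng1 farthest apart, at 1.72. By the same measure the nearest genes to Trp53 were Ahsa1 (0.0744), Mybbp1a and Prmt5, and those nearest to Mdm2 were Dhx16 (0.0879), Tas1r1 and Wdr8. Mdm4 was nearest to Pdgfra (0.130), a mesenchyme marker, then Tril and Csnk1g1, and Ppm1d to Zxdc (0.129), Dcaf4 and Rbm43. Ccng1 was nearest to Pros1 (0.191), Phlda3 and Gria3, and Trp53inp1 to Ei24 (0.101), Kif1c and Aox4. Some of these neighbours moved with the processing. Without MIR replicate 2, none of the 3 neighbours of Mdm4 was among its nearest 10, and 1 was without irradiated female replicate 2, with either smaller pseudocount or after quantile normalization. Of the 3 neighbours of Ccng1, 1 stayed among the nearest 10 with a pseudocount of 0.1 or quantile normalization, as did 1 of the 3 of Trp53inp1 with quantile normalization. Phlda3 and Ei24 are known p53 targets and stand in the effector list below. Over the 5 E11.5 libraries the nearest to Ccng1 were Hace1 (0.0431), Klhl17 and Tmx4.

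Paralogs of the 6 genes split. Of 10 tested, 4 were higher and 1 lower in females (median log2 difference 0.16, against -0.03 over all genes). In males 4 were higher and 3 lower (0.15, against -0.04). Of all genes, 21.8% were higher and 22.9% lower in females, and 28.7% higher and 31% lower in males. Trp73, the p53 relative p73, had 3.47, 5.90 and 6.06 FPKM in irradiated females, against 1.61, 1.53 and 1.01 in non-irradiated females (log2 difference 1.34, adjusted p = 0.0003552), and rose by 1.40 in MIR. Trp63, which encodes the p53 relative that guards oocytes, was low: it had 0.771, 2.16 and 1.06 FPKM in MIR, against 2.89, 2.96 and 3.19 in MC, and fell by 0.83 there (adjusted p = 0.003643). Ccng2, cyclin G2, rose by 0.81 in females and 1.13 in MIR, and Trp53inp2 by 0.45 and 0.44. Of the phosphatases related to Ppm1d, Ppm1k rose by 1.41 in females and 1.42 in MIR, whereas Ppm1g fell by 0.64 and 0.75, and Ppm1h fell by 0.63 in MIR (adjusted p = 0.01878). The Ppm1h call was lost without MIR replicate 3 or MC replicate 2 or 3, with library weights and with the germ cell level as a covariate (adjusted p from 0.0562 to 0.333, over a range of 0.000787 to 0.333). With the male groups set by their codes, the female and male differences of Ppm1h were not called as different from each other (adjusted p = 0.461). Ppm1a, Ppm1b and Ppm1f were not called in either sex. With the germ cell level as a covariate, 1 paralog was higher and 0 lower in each sex. That covariate left 2550 of all 12852 genes called in females, against 5756 without it, and 896 in males, against 7679.

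Of 14 other enzymes tested that add or remove ubiquitin on p53, 2 were higher and 7 lower in females (median -0.30), where 21.8% of all genes were higher and 22.9% lower. In males 1 was higher and 8 lower (median -0.37), where 28.7% of all genes were higher and 31% lower. Rchy1, the ligase Pirh2 and itself a p53 target, had 34.1, 35.4 and 34.1 FPKM in irradiated females, against 21.5, 20.5 and 22.5 in non-irradiated females (log2 difference 0.66, adjusted p = 0.0003475), and rose by 0.79 in MIR. Cul4a rose by 0.52 in females. Huwe1 fell by 0.92 in females, Usp10, a p53 deubiquitinase, by 0.59 in MIR, and Usp7, which deubiquitinates both p53 and Mdm2, by 0.71 in females and 0.63 in MIR. Trim28, a partner of Mdm2, had 130, 156 and 177 FPKM in irradiated females, against 301, 301 and 259 in non-irradiated females, a fall of 0.90, and fell by 1.35 in MIR. With the germ cell level as a covariate, 6 were lower in females and 2 in males. In either direction, 2550 and 896 of all genes were then called.

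Of 18 kinases, acetyltransferases and damage mediators that act on p53, 0 were higher and 13 lower in each sex (median -0.60 in females and -0.51 in males), where 22.9% of all genes were lower in females and 31% in males. In females the largest falls were in Brca1 (0.95), Ep300 (0.79) and Crebbp (0.74), of which the last pair encode the acetyltransferases p300 and CBP. In MIR they were in Atr (0.79), Brca1 (0.74) and Chek1 (0.67), a kinase and its target in the replication checkpoint. With the germ cell level as a covariate, 5 were lower in females and 1 in males. In either direction, 2550 and 896 of all genes were then called. Brca1 and Chek1 then had log2 differences of 0.14 and 0.10 in males. Of 8 tested genes whose products bind Mdm2 or signal ribosomal stress, 0 were higher and 2 lower in females, and 1 higher and 6 lower in males, with 0 lower in either sex under that covariate. The female count is near the share of all genes called lower, 22.9%. Cdkn2a, the locus of the Mdm2 inhibitor p19Arf, had 7.20, 13 and 10.1 FPKM in MIR, against 29.1, 32.8 and 32.0 in MC, a fall of 1.57 (adjusted p = 0.0002752). Gene-level FPKM cannot separate p19Arf from p16Ink4a, which shares its locus. In females Cdkn2a had 9.28, 16 and 22.9 FPKM in irradiated and 22.3, 22.0 and 21.5 in non-irradiated libraries, and was not called.

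Among 15 partners of the feedback proteins, 5 were higher and 2 lower in females, and 3 higher and 3 lower in males (median -0.10 and -0.16). Of all genes, 44.8% were called in females and 59.7% in males (median -0.03 and -0.04). The share of this list called was thus near that of all genes in females and below it in males. Ppp2r5a, a regulatory subunit of protein phosphatase 2A of the kind that cyclin G1 binds, had 21.0, 14.6 and 12.6 FPKM in irradiated females, against 8.46, 7.36 and 8.83 in non-irradiated females, a rise of 0.86 (adjusted p = 0.001163). It had 21.1, 23.9 and 21.9 FPKM in MIR, against 29.7, 28.3 and 24.6 in MC (log2 difference -0.29, adjusted p = 0.127). Gabarap rose by 0.62 in MIR and Map1lc3a by 0.59 in females, both encoding autophagy proteins of the family that Trp53inp1 binds. The catalytic subunit Ppp2ca fell by 0.34 in females and 0.31 in MIR. With the germ cell level as a covariate, 3 were higher and 0 lower in females and 1 higher and 0 lower in males. Under it 2550 of all genes were called in females and 896 in males. Library weights gave 8 lower in females, where 8585 of all genes were called in either direction. Median scaling gave 9 lower in males, where 5065 of all genes were lower.

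Most of the listed target genes through which p53 acts, apart from the 6, were higher. This list, like the others, was chosen with earlier results of these data known, so its counts only describe it. Of 34 tested, 29 were higher and 0 lower in females (median log2 difference 1.07), and 26 higher and 1 lower in males (median 1.42), where 21.8% of all genes were higher in females and 28.7% in males. Dcxr, a carbonyl reductase, rose by 3.34 in females and 3.70 in MIR. Plk2, a polo-like kinase, rose by 2.96 in females, Psrc1, a microtubule protein, by 3.31 in MIR, and Btg2, an antiproliferative factor, by 2.78 in females and 3.24 in MIR. Xpc, a nucleotide excision repair factor, fell by 0.53 in MIR (adjusted p = 0.002873). Cdkn1a, the cell cycle inhibitor p21, is named here after its values were seen: it had 52.9, 74.6 and 79.3 FPKM in irradiated females, against 26.7, 29.7 and 25.7 in non-irradiated females (log2 difference 1.28, adjusted p = 6.196e-05). The rise of Ccng1 thus lies above the median of the effector list in both sexes, and that of Mdm2 (0.82 and 0.63) below it. With the germ cell level as a covariate, 29 were higher in females and 28 in males, with 0 lower in either. Under it 2550 of all genes were called in either direction in females and 896 in males. At E11.5, with only 2 irradiated and 3 non-irradiated libraries, none of the 31 effector genes tested was called by limma. An unadjusted limma p below 0.05 was found for 5 of the 31, against 358 of all 11315 genes. Of the 31, 21 had a difference above 0, and their median was 0.13, against -0.02 over all genes.

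**Figure D5:**
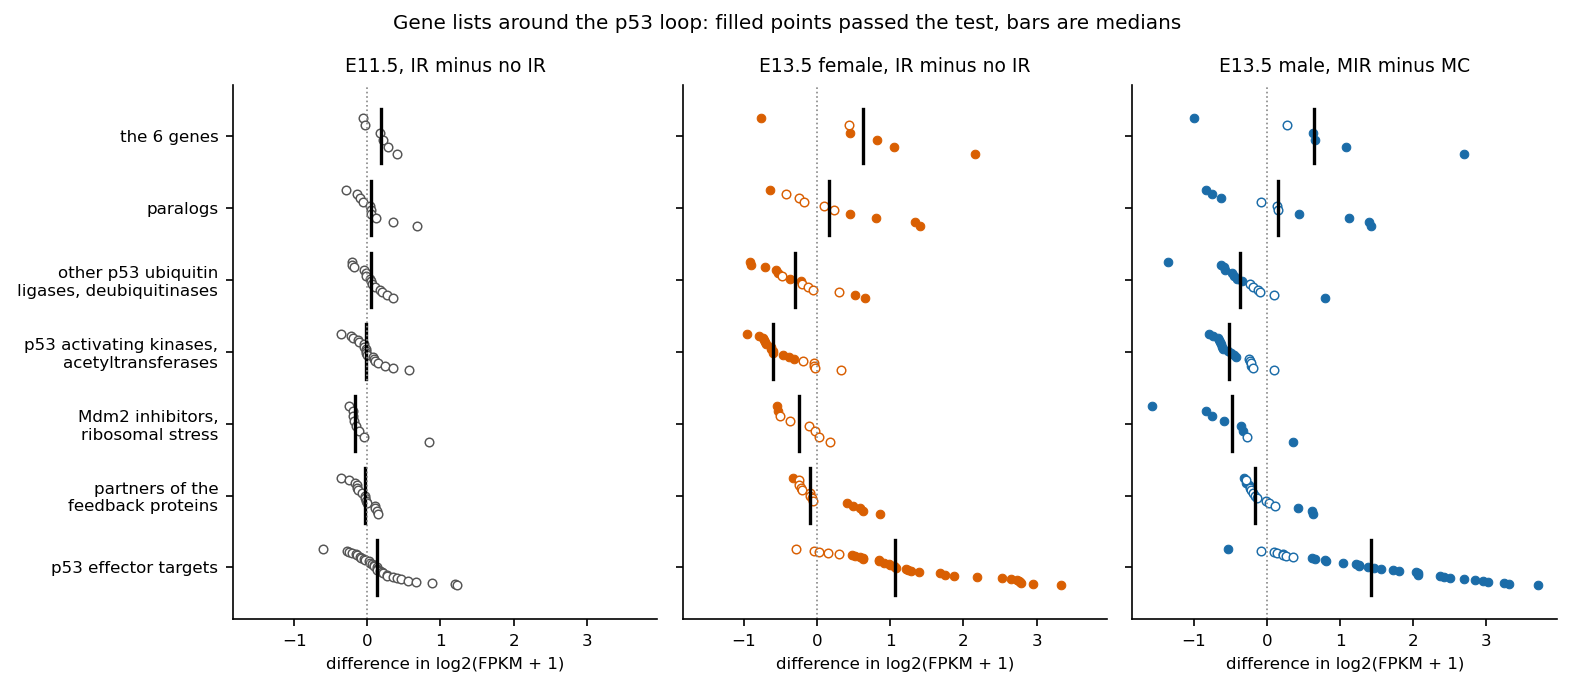
Difference in log2(FPKM + 1) of each gene of the lists around the p53 loop at E11.5, in E13.5 females and in E13.5 males; filled points were called, and bars are list medians. Effector targets extend to 3.34 in females and 3.70 in males, and no list gene was called at E11.5.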

How the data were processed

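Total RNA of purified germ cells was depleted of ribosomal RNA and made into libraries with the NEBNext Ultra II kit, per the labels' protocols. The deposited FPKM values were computed by the authors, in 1 table for 5 E11.5 libraries and 1 for 12 E13.5 libraries. The submitters' processing notes name mm10 and DESeq2. The aligner, counter and annotation were not given in the sources used here, so whether strand was used in counting is unknown. All sample columns were assigned (0 left over), and 0 pairs of libraries were identical. Depth, estimated from low FPKM steps, is approximate.

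Genes with at least 1 FPKM in at least 2 (E11.5) or 3 (E13.5) libraries were tested with limma 3.58.1 in R 4.3.3 (trend, empirical Bayes, two-sided) on log2(FPKM + 1). Folds are on that scale and understate changes of low genes. The 4 E13.5 groups shared 1 fit, and the ages were never tested against each other, since their tables are separate. Adjusted p-values cover all genes tested. The test was first tried on simulated data, with noise independent between genes and far fewer genes changed than were called at E13.5. That trial therefore does not bear on the E13.5 counts. Python 3.11.15 with numpy 2.4.6, pandas 2.3.3 and matplotlib 3.10.9 served for ratios, sequence searches and figures. Coordinates of genes are from GENCODE on GRCm38.

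Named genes were the 6, the paralogs, the 3 nearest profiles of each of the 6, and of each other list up to 3 called rises and 3 called falls. The 6 genes and the lists were chosen with earlier results of these data known. Other settings tried were a filter at 5 FPKM or none, a pseudocount of 0.1 or 0.5, quantile normalization, median scaling, library weights, a replicate block, the germ cell marker level as a covariate, fitting only the groups compared, and leaving out each library. Setting the male groups as titled was added after seeing the data. No count test was run, because the tables hold no counts.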

Additional observations from a re-analysis of the deposited data

Results flagged for a closer look

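The change of Ppp2r5a differed between the sexes when the male groups are set by their codes: the difference of irradiated minus non-irradiated females, less that of MIR minus MC, was 1.15 on the log2 scale (SE 0.222, limma adjusted p = 0.00929, where 7.77% of all genes were called). Its level was 16.1 FPKM in irradiated and 8.22 in non-irradiated females, and 22.3 FPKM in MIR and 27.5 in MC. With the male groups turned as their titles name them, it was 0.57 (SE 0.222, adjusted p = 0.03677, where 67.7% of all genes were called). By the codes, Ppp2r5a was the only 1 of the 15 partners of the feedback proteins called for this difference. Of the 34 effector targets tested, 1 was called higher and 2 lower. Both counts are near the share of all genes, 7.77%, so they mark neither list.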

How the results depend on the processing

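Trp53, Mdm2, Ccng1 and Trp53inp1 kept their direction and their call in females under all 16 alternatives, as did Ccng1 and Trp53inp1 in males. Median scaling moved the median difference of all genes in males by -0.15 (quantile normalization by -0.12) and the share of higher among called genes between irradiated females and MIR to 58.3%, against 45.6%. Genes called at E11.5 numbered 2, with 1 without a filter and 2 to 17 when 1 library was left out (17 without irradiated replicate 2, 4 without non-irradiated replicate 2 or 3). The replicate numbers do not pair the samples by the labels or by every pair's correlation. Of 20 same-number pairs 4 correlated above 0.1, both of them at E11.5 (0.156 and 0.246) and 2 of the 3 of irradiated females with MIR (0.482 and 0.406, the other 0.097), and 5 libraries correlated best with their own number in at least 1 comparison. With the replicate block, 5 genes were called at E11.5 and 1 of the 6 (Ccng1, adjusted p = 0.0222) for the difference between the sexes' changes. For that difference 998 genes were called, 557 with a filter at 5 FPKM, 3763 with library weights (2 of the 6), and 463 to 2490 (0 to 1 of the 6) when 1 library was left out (lowest without MIR replicate 3, highest without MIR replicate 2). Library weights gave 8835 genes between non-irradiated females and MC, where leaving out 1 library gave 1 to 2 of the 6. Between irradiated females and MIR, fitting only those groups gave 2387 genes, and 3 of the 6 were called with library weights, 2 with the germ cell covariate and 1 to 2 when 1 library was left out. The covariate left 2550 genes called in females and 896 in males. With the codes kept, signs turned only for differences near 0 or under that covariate. At E11.5, Trp53 turned to 0.0693 under quantile normalization, 0.074 with the block and -0.3444 to 0.1725 with 1 library left out, Ppm1d to 0.0825 with weights, 0.2317 with the block and -0.2275 to 0.2317 with 1 left out, and Trp53inp1 ranged from -0.0612 to 0.4068. Between non-irradiated females and MC, quantile normalization turned Mdm2 to 0.0487 and Trp53inp1 to 0.0725, the covariate turned Ppm1d to -0.0673, and Trp53inp1 ranged from -0.0761 to 0.0026 with 1 library left out. Between irradiated females and MIR, median scaling turned Mdm4 to 0.0035 and Trp53inp1 to 0.0433, weights turned Trp53inp1 to 0.0315, and the covariate turned Mdm2 to -0.485 (adjusted p = 0.00318), Ppm1d to -0.1627 and Ccng1 to 0.0772; with 1 library left out Mdm2 ranged from -0.0463 to 0.3033, Mdm4 from -0.2242 to 0.1144 and Trp53inp1 from -0.1287 to 0.0078. For the difference between the sexes' changes, Trp53inp1 turned to 0.0672 with median scaling, 0.0951 with weights and -0.0885 to 0.048 with 1 library left out, and the covariate turned Mdm2 to -0.1758 and Ppm1d to -0.0954. Among list genes the covariate turned Prkcd to -0.1291 in females and -0.6055 in males, and Brca1 to 0.1366, Chek1 to 0.1012 and Npm1 to 0.0863 in males. With the male groups as titled, chosen after seeing the data, 8702 genes and 6 of the 6 were called for the difference between the sexes' changes, 7828 and 4 for non-irradiated females beside MIR, and 7735 and 6 for irradiated females beside MC. The first then turned for Trp53 to -1.7686, Mdm4 to 1.088, Ccng1 to 4.8529 and Trp53inp1 to 2.1214, the second for Trp53 to 0.2289, Mdm4 to -0.5406, Ppm1d to -0.1757 and Ccng1 to -2.3491, and the third for Mdm4 to 0.5475, Ccng1 to 2.5038 and Trp53inp1 to 1.0058. The cause was not tested.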
